A study of Mus musculus with 16 samples.

Results

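The genes described are Cybb, Cyba, Ncf1, Ncf4, Rac2 and Hvcn1, which encode subunits of NADPH oxidase 2 (NOX2), a GTPase that activates it and the proton channel that works beside it. They were taken by symbol from the deposited tables, and all 6 were found among 24411 gene symbols in both the counts and the TPM (transcript levels normalized for gene length and depth). The tissue was spinal cord of female C57BL/6J mice, and the groups were SCI + Atorvastatin (7 mice), SCI + Vehicle (7 mice) and Uninjured Control (2 mice). Mice of both SCI groups were injured at 12 wk of age by lateral compression of the thoracic cord with a 0.25 mm spacer. Daily treatment began 2 wk after the injury and ran for 4 wk, with atorvastatin, an inhibitor of cholesterol synthesis, at 10 mg/kg in a mixture of DMSO, PEG 400, Tween 80 and saline, or with that mixture alone. A 5 mm piece of cord around the injury was collected 6 wk after the injury, so the SCI mice were then older than the uninjured mice. The age of the uninjured mice differs between the sources, being 12 wk in the labels and somewhat higher in the description of the study, and the day of collection after injury also differs slightly between them. The Uninjured Control mice had neither surgery nor vehicle, and injury, anaesthesia, injections and age cannot be told apart in a comparison with them.

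NOX2 is the oxidase of phagocytes, and in the spinal cord it is known mainly from microglia and from macrophages and neutrophils that enter after injury. A membrane dimer of gp91phox and p22phox carries electrons from NADPH across the membrane to oxygen and makes superoxide. Cytosolic subunits and a Rac GTPase join the dimer when the cell is activated, and a voltage-gated proton channel carries out the protons that the electron flow leaves behind. Cybb encodes gp91phox, the catalytic core, and Cyba encodes p22phox, its stabilizing partner. Ncf1 encodes p47phox, the organizer that brings the cytosolic subunits to the membrane, and Ncf4 encodes p40phox, which binds phosphoinositides of the phagosome. Rac2 is the Rac GTPase of blood cells, and Hvcn1 encodes the proton channel Hv1.

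On GRCm38 (GENCODE vM21), Cybb lies on the minus strand of chromosome X from 9435252 to 9487771 and Cyba on the minus strand of chromosome 8 from 122424776 to 122432930. Ncf1 lies on the minus strand of chromosome 5 from 134220053 to 134229625, and Hvcn1 on the plus strand of the same chromosome from 122206804 to 122242297. Ncf4 lies on the plus strand of chromosome 15 from 78244801 to 78262580, with Rac2 on the minus strand of that chromosome from 78559167 to 78572783. The RefSeq promoter table (GRCm38.p6) held 3 of the 6 genes, and their start regions are shown because these genes were all higher in the SCI mice. Each sequence runs 5′ to 3′ on the minus strand from 250 bases before the start to 30 bases after it, at chrX:9469295-9469574 for Cybb, chr8:122432911-122433190 for Cyba and chr5:134229596-134229875 for Ncf1. Capitals mark matches, on either strand, to GAGGAA, the purine-rich core bound by the myeloid factor PU.1, and to GGGCGG, the GC box.
Cybb: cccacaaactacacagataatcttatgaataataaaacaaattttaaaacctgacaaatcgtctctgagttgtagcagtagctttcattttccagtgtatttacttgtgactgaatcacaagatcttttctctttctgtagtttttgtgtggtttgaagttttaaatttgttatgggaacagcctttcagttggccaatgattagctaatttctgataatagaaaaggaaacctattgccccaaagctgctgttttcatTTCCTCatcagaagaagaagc
Cyba: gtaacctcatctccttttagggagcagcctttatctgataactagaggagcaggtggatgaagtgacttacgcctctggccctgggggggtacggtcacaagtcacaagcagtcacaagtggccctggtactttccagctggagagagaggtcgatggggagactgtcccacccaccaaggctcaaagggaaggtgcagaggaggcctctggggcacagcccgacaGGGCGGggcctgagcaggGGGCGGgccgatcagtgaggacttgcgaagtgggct
Ncf1: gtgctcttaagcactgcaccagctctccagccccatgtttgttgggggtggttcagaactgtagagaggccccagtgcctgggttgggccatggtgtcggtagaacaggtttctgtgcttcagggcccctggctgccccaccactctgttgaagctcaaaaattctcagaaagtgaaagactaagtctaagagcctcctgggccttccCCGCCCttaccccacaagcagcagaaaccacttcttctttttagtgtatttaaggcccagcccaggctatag
The RefSeq start of Cybb used here lies inside the GENCODE span of the gene given above. Cybb held 1 match to GAGGAA, on the other strand and after that start, and Cyba and Ncf1 held none. GGGCGG was found at 2 places in Cyba and 1 in Ncf1, and at none in Cybb. Another motif, TATAAA, the TATA box, was not in any of these windows. Of 32851 promoters of the same length, 26% held GAGGAA, 34.7% held GGGCGG and 13.1% held TATAAA, so each match is a description of letters only.

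Total counts on genes ranged from 14823292 to 25579826 per mouse. The Uninjured Control libraries stood apart from the SCI libraries, with counts in 12732 and 12356 genes against 16399 to 19338. A count of 0 was found in the control mice for 13.9% and 17.6% of 3245 genes whose SCI mean was 200 to 500 counts, and for no more than 0.247% of them in any SCI mouse. Transcripts of 9 liver genes summed to 1260 and 6650 TPM in the control mice and to at most 12.8 TPM in the SCI mice. All 13 neuron and glia genes checked, such as Snap25 and Mbp, had counts in every mouse, as the spinal cord label requires. The part that the zeros and the liver transcripts of the control libraries play in the differences from the SCI mice was not tested.

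All 6 genes had higher levels after SCI, and 5 of them were upregulated in SCI + Vehicle vs. Uninjured Control and in SCI + Atorvastatin vs. Uninjured Control (edgeR, log2 fold change above 0.32 at an adjusted p below 0.05). By that rule 19.8% of all 16091 genes tested were upregulated with vehicle and 24.9% with atorvastatin. Rac2 was tested only because of its level in the SCI mice, and of the other 5 genes 4 were called in each comparison. Cyba had the smallest standard error, and Cybb and Rac2 rose from levels at or near 0. Ncf1 rose least among the genes called, and Ncf4 did not pass the test. Hvcn1 had no counts in either control mouse but had TPM above 5 in both. The median log2 fold change of the 6 genes was 4.39 with vehicle and 4.56 with atorvastatin, beside 0.17 and 0.21 over all genes tested. These medians include Rac2, and Hvcn1 at 11.2 and 11.5, values fitted against 0 counts in both control mice that are no bounds. From log2(TPM + 1) the change of Hvcn1 was 1.96 and 2.20, so the medians rest on which value it is given. In TPM, all 14 SCI mice were above both control mice for 5 of the 6 genes, as they were for 23.7% of the genes tested. Rac2 adds nothing to this count either, which leaves 4 of the other 5 genes. Both comparisons use the same 2 control mice. In tissue RNA, more cells of a type and more RNA per cell cannot be told apart.

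**Figure D1:**
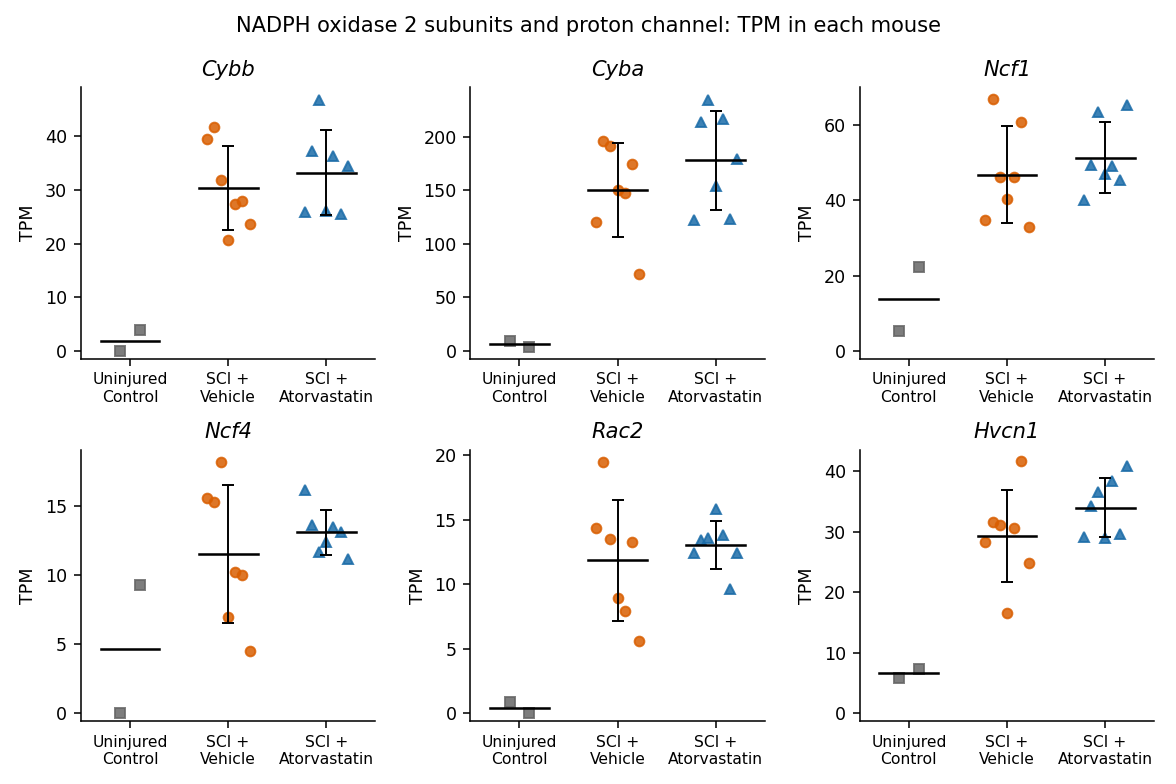
TPM (linear axis from 0) of each gene in each mouse of the 3 groups, 1 point per mouse, with the mean as a line and the SD as a bar for the groups of 7. Every SCI mouse lies above both control mice for Cybb, Cyba, Ncf1, Rac2 and Hvcn1, while 2 SCI + Vehicle mice lie below the control mouse with 9.29 TPM of Ncf4.

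Cybb, the catalytic subunit, was at 0 and 3.82 TPM in the Uninjured Control mice, from 0 and 150 counts. In the SCI + Vehicle mice its TPM ran from 20.7 to 41.7 with a median of 27.9, and in the SCI + Atorvastatin mice from 25.5 to 46.8 with a median of 34.4. All 14 SCI mice were above both control mice. The log2 fold change from counts was 4.22 with vehicle (standard error 1.03, adjusted p = 0.0114 from edgeR) and 4.34 with atorvastatin (standard error 1.05, adjusted p = 0.00816 from edgeR). The size of this change rested on which control mouse was used. Without control replicate 1, in which Cybb had no counts, the log2 fold change fell to 3.23 in the vehicle and 3.36 in the atorvastatin comparison. Without control replicate 2 it was 13.5 and 13.6, fitted values against 0 counts that are no bounds.

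Cyba, the p22phox subunit, had the highest TPM of the 6 genes in all 14 SCI mice. Its control values were 9.30 and 3.37 TPM. With vehicle the TPM ran from 72.0 to 196 around a median of 150, and with atorvastatin from 123 to 235 around a median of 180. Again no SCI mouse overlapped the controls. Mean TPM was 23.7 times the control mean with vehicle and 28.1 times with atorvastatin. Its log2 fold change of 4.56 with vehicle had the smallest error of the 6 against the controls (standard error 0.464, adjusted p = 0.000121 from edgeR), and the value with atorvastatin was 4.82 (standard error 0.460, adjusted p = 5.04e-05 from edgeR). Leaving out any 1 mouse kept the log2 fold change between 4.08 and 5.26 with vehicle.

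Although p22phox and gp91phox pair in the membrane, the transcript levels of their genes were unequal. Cyba TPM was 5.22 ± 1.15 times Cybb TPM (SD, n = 14), with a range from 3.04 to 7.25 times. The ratio varied more among the vehicle mice (SD 1.61, n = 7) than among the atorvastatin mice (SD 0.519, n = 7), a difference in spread that was not tested.

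Ncf1, the organizer subunit, was already at 5.31 and 22.3 TPM in the Uninjured Control mice, the latter the highest control value of any of the 6 genes. Its TPM was 46.9 ± 12.8 with vehicle and 51.4 ± 9.43 with atorvastatin (SD, n = 7 in each). The lowest SCI mouse, at 32.9 TPM, was still above the higher control mouse. The log2 fold change was 1.90 with vehicle (standard error 0.575, adjusted p = 0.0309 from edgeR) and 2.12 with atorvastatin (standard error 0.566, adjusted p = 0.0138 from edgeR). The call with vehicle was lost without SCI + Vehicle replicate 2 (adjusted p = 0.0547 from edgeR) or replicate 6 (adjusted p = 0.0562 from edgeR). Without control replicate 1 the values were 1.09 in the vehicle and 1.31 in the atorvastatin comparison, and without control replicate 2 they were 3.92 and 4.13. In control replicate 1 Ncf1 had 61 counts at 5.31 TPM, or 11.4 counts per TPM adjusted for the library. That quotient was 20.2 to 27.1 in the SCI mice and 22.0 in control replicate 2. Of the exonic bases of Ncf1, 11.1% overlap exons of Gtf2ird2 on the opposite strand.

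Ncf4, the phosphoinositide-binding subunit, was the gene that did not pass the test. It was at 0 TPM in one control mouse and at 9.29 TPM in the other, from 0 and 98 counts. Of the vehicle mice, 2 lay below the higher control in TPM, at 4.50 and 7.00 (3 in CPM, counts scaled to the library total), while the others ranged up to 18.2 with a group median of 10.2. With atorvastatin all 7 mice were above both controls, from 11.2 to 16.2 TPM. The log2 fold change was 1.5 with vehicle (adjusted p = 0.401 from edgeR) and 1.87 with atorvastatin (adjusted p = 0.234 from edgeR). The 95% confidence interval with vehicle ran from -1.27 to 4.27 on the log2 scale, so neither no change nor a change like that of Cybb was left outside it. Without control replicate 2 the fitted log2 fold change was 10.1 with vehicle (adjusted p = 0.000355 from edgeR) and 10.5 with atorvastatin (adjusted p = 7.88e-07 from edgeR), so the gene was called, again against 0 counts. Without control replicate 1 it was 0.50 and 0.87 and not called. On the log2(TPM + 1) scale with limma, Ncf4 passed the adjusted limit with atorvastatin (adjusted p = 0.0329) and not with vehicle (adjusted p = 0.107).

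Rac2, the GTPase, had 23 counts in one control mouse and 0 in the other, or 0.890 and 0 TPM. Its mean of 0.445 TPM in the controls means that it was tested only because of its level in the SCI mice, so its call adds nothing to the count of genes called. In the vehicle mice it ran from 5.58 to 19.5 TPM (median 13.3), and in the atorvastatin mice from 9.67 to 15.9 TPM (median 13.5), without overlap with the controls. The log2 fold change was 4.68 with vehicle (standard error 1.19, adjusted p = 0.0138 from edgeR) and 4.77 with atorvastatin (standard error 1.07, adjusted p = 0.00555 from edgeR). Without control replicate 2, in which it had no counts, the value was 3.68 with vehicle and 3.76 with atorvastatin. Without control replicate 1 it was 11.4 and 11.5, fitted against 0 counts.

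Rac1, the widely expressed Rac GTPase that can also activate NOX2, was far more abundant and was not called. Its TPM was 169 and 326 in the control mice, 268 ± 36.7 with vehicle and 256 ± 12.7 with atorvastatin (SD, n = 7 in each). The SCI mice lay between the control values. Rac1 TPM was 23.2 ± 8.91 times Rac2 TPM over the 14 SCI mice (SD).

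Hvcn1, the proton channel gene, gave different changes in the 2 tables. In TPM it was at 5.78 and 7.37 in the Uninjured Control mice, 29.2 ± 7.60 with vehicle and 33.9 ± 4.86 with atorvastatin (SD, n = 7 in each). Every SCI mouse was above both controls, from 16.6 TPM upward. On TPM, the mean was 4.44 times the control mean with vehicle and 5.16 times with atorvastatin. On the log2(TPM + 1) scale the limma change was 1.96 and 2.20, where the median of all genes tested was 0.49 and 0.52, or 0.32 above the median from counts in both comparisons.

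In counts, Hvcn1 was at 0 in both control mice and between 155 and 476 in the SCI mice. Against the limit of 3 counts per library that counting error alone allows a 0, mean CPM was at least 95.9-fold higher in the vehicle group. In the atorvastatin group it was at least 111-fold higher. The counts of the SCI mice per unit of TPM imply 64.7 and 80.9 counts for the TPM of the control mice. With those implied counts in place of 0, the change would have been 3.97-fold with vehicle and 4.58-fold with atorvastatin. The implied counts were calculated from the control TPM, so a change of similar size was built in and is no second measure. The counts as deposited gave a bound far above both. The libraries carry no molecular identifiers that were used here, so the limit covers counting error only. The limit does not cover the many zeros of the control libraries described above, so it does not bound the level itself.

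**Figure D2:**
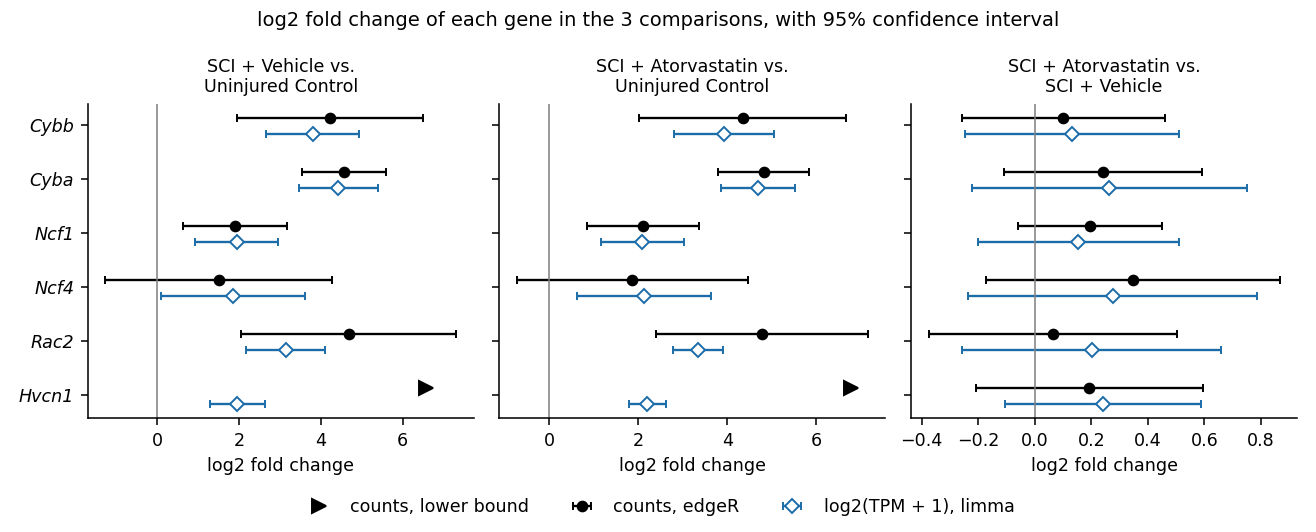
log2 fold change (x axis) of each gene in the 3 comparisons, from counts with edgeR (circles), from log2(TPM + 1) with limma (diamonds), each with its 95% confidence interval, and the lower bound from counts for Hvcn1 (triangles). The intervals of Ncf4 from counts include 0 against the controls, and all intervals between treatments include 0. The bound of Hvcn1 lies far above its TPM change and covers counting error only.

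The mismatch between counts and TPM was larger for Hvcn1 than for the other 5 genes also within the SCI mice, where it had counts throughout. Counts divided by TPM, adjusted for the library, varied little between mice for most genes. For Hvcn1 this quotient ranged from 5.23 to 14.9 over 14 mice, with a coefficient of variation (CV) of 23.3%. The CV was between 5.18% (Cybb) and 11.8% (Ncf4) for the other genes, and the median over 8965 well-counted genes was 5.52%. Of those genes, 98.8% had a smaller CV than Hvcn1. SCI + Vehicle replicate 1 was lowest, with 163 counts at 28.3 TPM.

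**Figure D3:**
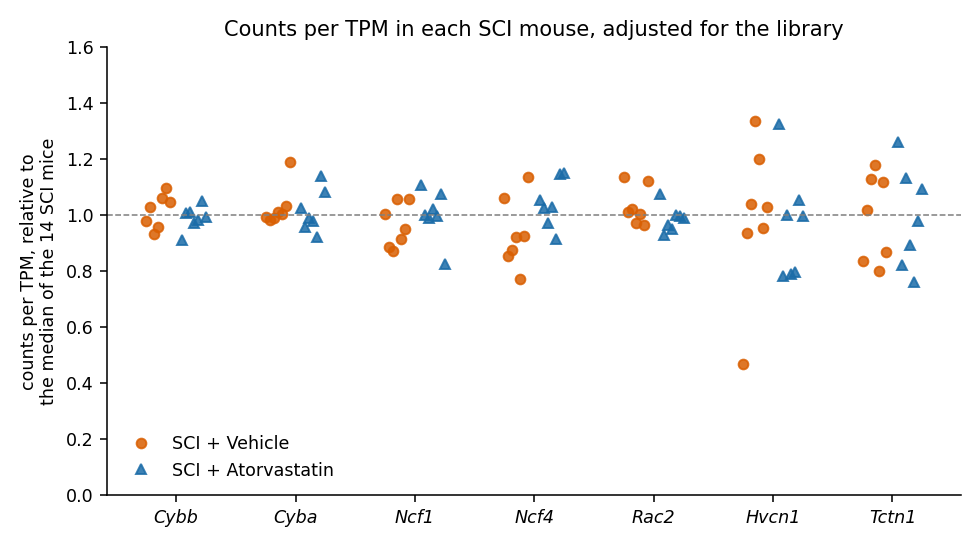
Counts per TPM in each SCI mouse, adjusted for the library and divided by the median of the 14 mice (y axis from 0), for the 6 genes and Tctn1. The points of Hvcn1, from 5.23 to 14.9 before division by the median, and of Tctn1 are spread more widely than those of the other genes.

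Near its 3′ end Hvcn1 overlaps Tctn1, a ciliary transition zone gene on the opposite strand, with shared exonic bases within chr5:122238406-122241835. Of 2790 bases in the lowest-numbered transcript of Hvcn1, 1574 (56.4%) lie in exons of Tctn1, including 408 coding bases of Hvcn1. The library kit marks strand, but the strand setting of the counting step is not given in the sources used here. Tctn1 showed the opposite mismatch in 1 control mouse, with 102 counts at 0 TPM, and was at 0 in both tables in the other. Its CV of counts per TPM in the SCI mice was 16.3%. Whether the overlap bears on the values of either gene was not tested. The pattern was also not limited to Hvcn1, since 56 genes had TPM above 5 and no counts in both control mice, 10 of them with counts in every SCI mouse, among them Cox16, Endog and Scamp3.

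**Figure D4:**
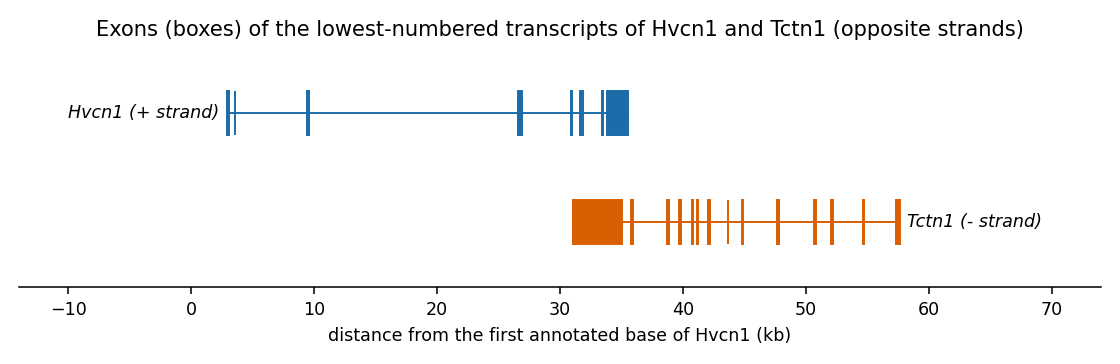
Exons (boxes) of the lowest-numbered transcript of Hvcn1 (plus strand) and of Tctn1 (minus strand), to scale, by distance in kb from the first annotated base of Hvcn1. The last exons of both genes lie over each other, and 1574 bases of the Hvcn1 transcript are shared.

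Levels of the 6 genes in the SCI mice can be ordered by TPM, which is per length. By the median over 14 mice the order was Cyba (164), Ncf1 (46.6), Hvcn1 (30.8), Cybb (29.8), Rac2 (13.4) and Ncf4 (12.8). Cyba was above Ncf1, Ncf1 above Hvcn1, and Cybb above Rac2 in all 14 mice. Hvcn1 and Cybb, and likewise Rac2 and Ncf4, did not differ beyond their spread, with the first above the second in 8 of 14 mice.

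The comparison of SCI + Atorvastatin with SCI + Vehicle asks whether the statin moved these genes beyond the injury. None of the 6 passed the limit for this comparison (unadjusted p below 0.001 with the same fold limit), which 17 of 16091 genes passed (0.106%). None of the 6 had an unadjusted p below 0.05 in edgeR, where 7.03% of all genes did, and DESeq2 and limma also called none. All 6 log2 fold changes were above 0, with Ncf4 at 0.35, Cyba at 0.24, Ncf1 and Hvcn1 at 0.19, Cybb at 0.10 and Rac2 at 0.06. Their unadjusted p from edgeR ran from 0.126 (Ncf1) to 0.764 (Rac2), and the adjusted p from 0.764 to 0.975. The 12 microglia or macrophage genes described below were also all above 0 in this comparison. The median log2 fold change of those 12 was 0.16, beside 0.19 for the 6 genes and -0.0014 for all genes tested.

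The confidence intervals bound what these samples could show. For Ncf1 the 95% interval ran from -0.06 to 0.45 on the log2 scale, the narrowest of the 6. The widest was that of Ncf4, from -0.17 to 0.87. The values of both groups overlapped for every gene, as for Cybb, where the vehicle mice spanned 20.7 to 41.7 TPM and the atorvastatin mice 25.5 to 46.8 TPM.

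The direction was not stable for Cybb and Rac2. SCI + Vehicle replicate 7 had the lowest TPM of all SCI mice in 4 of the 6 genes and SCI + Vehicle replicate 4 in the other 2. Replicate 4 also had the lowest total counts of all libraries. Without these 2 mice, an alternative chosen after the values were seen, the log2 fold change with atorvastatin against vehicle was -0.04 for Cybb and -0.14 for Rac2. Leaving out SCI + Atorvastatin replicate 3 alone gave -0.02 for Cybb.

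Variation between mice was larger in the SCI + Vehicle group for all 6 genes. The CV of Ncf4 TPM was 43.2% with vehicle and 12.5% with atorvastatin, and that of Rac2 was 39.5% and 14.4%. Among all genes with a CV in both groups, 67.3% also had the larger CV with vehicle, with medians of 23.4% and 19.2%. Without SCI + Vehicle replicates 4 and 7, the CV with vehicle was 26% for Ncf4 and 29.8% for Rac2, and 4 of the 6 genes had the larger CV with vehicle. The difference in spread was not tested.

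Levels of the 6 genes varied together among the SCI mice to a moderate degree. With group means taken out, the 15 pairwise Pearson correlations of log2 CPM over 14 mice had a median of 0.43 and ranged from -0.26 to 0.78. Rac2 with Ncf4 had the highest (r = 0.78, Spearman's rho = 0.69), followed by Cyba with Ncf1 (r = 0.76, rho = 0.78) and Cyba with Cybb (r = 0.62, rho = 0.69). Hvcn1 had r = 0.45 with Ncf1, 0.32 with Cyba, 0.00 with Cybb, -0.22 with Rac2 and -0.26 with Ncf4. From TPM in place of counts, all 15 were above 0 and the median was 0.54. The values of Hvcn1 were then 0.64 with Ncf1, 0.59 with Cybb, 0.46 with Cyba, 0.40 with Rac2 and 0.34 with Ncf4. Without SCI + Vehicle replicates 7 and 4, which lay farthest from the median, the median from counts was 0.31 and 10 of 15 were above 0. Within the 7 mice of each group the pairs differed. Rac2 with Ncf4 had r = 0.89 with vehicle and -0.44 with atorvastatin. Cyba with Ncf1 had 0.69 and 0.89, and Cyba with Cybb 0.24 and 0.98. The median of the 15 pairs was 0.49 with vehicle (12 above 0) and 0.24 with atorvastatin (9 above 0). These differences between the groups were not tested. The points share depth and tissue sampling of each library, and these correlations are descriptions.

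The genes most like the mean profile of the 6 in those 14 mice, among 13994 genes with a mean of at least 50 counts, were Sdc1 (r = 0.92), Lox (r = 0.92), Csf1r (r = 0.91), Itm2b (r = 0.91) and Arpc5 (r = 0.90). Csf1r is the receptor that maintains microglia and macrophages. Taken singly, Cybb was most like B2m (r = 0.93), the light chain of MHC class I, and Cyba most like Ctsz (r = 0.90), a lysosomal cathepsin. The closest gene was Slc33a1 for Ncf1 (r = 0.92), Tmem51 for Ncf4 (r = 0.88), Ptbp1 for Rac2 (r = 0.90) and Ddx19a for Hvcn1 (r = 0.92). Each was the highest of 13999 values, so a high correlation is what such a ranking returns.

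Markers of microglia or macrophages moved with the 6 genes. The summed TPM of 12 such genes, among them Aif1, Csf1r, Cx3cr1 and Tmem119, was 216 and 221 in the control mice, 1460 to 2163 with vehicle and 1964 to 2568 with atorvastatin. All 12 had a higher fitted level after SCI, and 8 were called with vehicle and 9 with atorvastatin, where 19.8% and 24.9% of all genes were. Of these 12, P2ry12, Ptprc, Cd68 and Mrc1 passed the filter on low values through the SCI groups alone, and of the other 8 genes 5 were called with vehicle and 6 with atorvastatin. Among the 14 SCI mice the mean profile of this list followed that of the 6 genes, with r = 0.93 and rho = 0.96, and with r = 0.89 without the 2 farthest mice. SCI + Vehicle replicate 7, lowest in most of the 6 genes, was also lowest in this list.

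**Figure D5:**
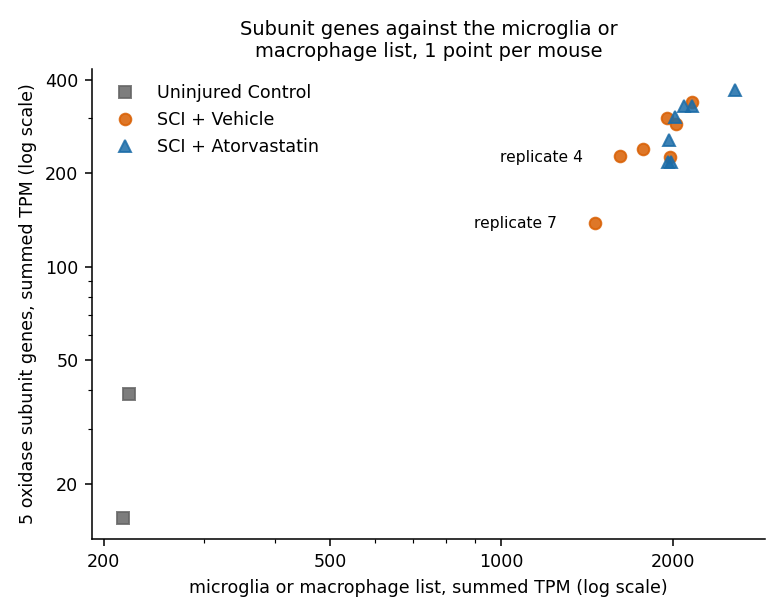
Summed TPM of the 5 oxidase genes without Hvcn1 (y axis, log scale) against the summed TPM of 12 microglia or macrophage genes (x axis, log scale), 1 point per mouse. The control mice lie at 216 and 221 TPM on the x axis and the SCI mice at 1460 or above, with SCI + Vehicle replicates 4 and 7 lowest among them.

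Set against that list, the 6 genes did not all move alike. Cyba was 1.52% and 4.30% of the list's summed TPM in the control mice and 4.93% to 10.2% in the SCI mice, above both controls in each of them. In TPM, Hvcn1 went the other way, from 2.67% and 3.33% in the controls to between 1.02% and 2.05% after SCI. That direction rests on its control TPM, since the counts of Hvcn1 were 0 in both control mice. Ncf1 was 2.46% and 10.0% in the controls and 1.76% to 3.24% after SCI, overlapping the lower control only. Summed over the 5 oxidase genes without Hvcn1 the share was 7.17% and 17.5% in the controls and 9.49% to 15.7% in the SCI mice, inside the span of the 2 control mice. The list's own sum in the control mice has a limit, since Cd68 and Ptprc were at 0 TPM in both, with up to 72 and 175 counts. Cd68 alone had a mean of 270 TPM with vehicle and 312 TPM with atorvastatin. A lower sum raises every share of the control mice, and the part of this in the shares was not tested. The part of cell number in the change of the 6 genes was also not tested.

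Markers of other blood cells were also measured. The 11 neutrophil genes found summed to 115 and 209 TPM in the control mice and to 132 to 909 TPM in the SCI mice, with 5 of them at 0 counts in both controls. B cell and T cell genes were all at 0 in the controls and reached at most 14 and 25.1 TPM after SCI. Rac2 and Hvcn1 are also known from lymphocytes and neutrophils, and the part of these cells was not tested.

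Of 12 other genes known to assemble or regulate NOX2, 6 were upregulated with vehicle (19.8% of all genes), 7 with atorvastatin (24.9% of all genes) and none was downregulated. One of those called in both, Pik3cg, was tested only because of its level in the SCI mice, so its call adds nothing to these counts, and the others called were 5 of 11 with vehicle and 6 of 11 with atorvastatin. Pik3cg, a leukocyte phosphoinositide kinase, had the largest log2 fold change of the 12 with vehicle, 4.21 (standard error 1.07, adjusted p = 0.0138 from edgeR), from 1.07 and 0 TPM in the control mice to between 7.38 and 13.7 TPM in the SCI mice. Next were Dock2, an activator of Rac, at 2.71 and Prkcd, a kinase that phosphorylates p47phox, at 2.56. Also upregulated with vehicle were Vav1, a further Rac activator, the GTPase Rap1a and Prdx6. Dock2 was at 1.86 without control replicate 1 and at 5.09 without control replicate 2. Pik3r5 was called with atorvastatin (log2 fold change 0.89, adjusted p = 0.0187 from edgeR) and not with vehicle (0.52, adjusted p = 0.346 from edgeR), a difference that was not tested between them. Arhgdib, Pik3cd, Prkcb, Prex1 and Rac1 were not called in either comparison. The median log2 fold change of these 12 genes was 1.01 with vehicle and 0.99 with atorvastatin.

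Other NADPH oxidases were low in TPM. The 9 genes for other oxidases and their partners were all at 0 counts in both control mice, and their summed TPM in the SCI mice was between 0.750 and 7.94, against 163 to 407 for the 6 genes. Nox4 and Noxo1 were the only 2 that passed the filter on low values, through the SCI groups alone. Nox4 ran from 0.110 to 1.92 TPM in the SCI mice and Noxo1 from 0.470 to 4.18 TPM. Both had counts in every SCI mouse, from 7 to 93 for Nox4 and from 23 to 124 for Noxo1.

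Of 10 genes that remove superoxide and peroxide, none was upregulated in either comparison, while Cat (catalase) and Sod2 (mitochondrial superoxide dismutase) passed the test as lower with vehicle and Cat, Sod2 and Sod1 with atorvastatin. Of all genes, 9.55% were called lower with vehicle and 14% with atorvastatin. Cat was at 312 and 104 TPM in the control mice and between 89.2 and 139.8 TPM in the SCI mice, so the lower control lay inside the range of the SCI mice. The log2 fold change with vehicle was -0.99 for Cat (adjusted p = 0.0358 from edgeR) and -0.46 for Sod2 (adjusted p = 0.0408 from edgeR). These calls rested on control replicate 1. Without it the value for Cat turned to 0.17 with vehicle and 0.22 with atorvastatin, none of Cat, Sod2 and Sod1 was called, and Gpx1 and Prdx1 were called higher in both comparisons. Without control replicate 2, Txn1 and Txnrd1 were called higher in both. Cat is also abundant in liver, whose transcripts were far higher in the control mice than in the SCI mice, and their part in its change was not tested. The median log2 fold change of the 10 genes was -0.30 with vehicle and -0.14 with atorvastatin.

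The calls against the controls depended on how the spread of 2 control mice was modelled. With voom and a weight for each group, none of the 6 genes was called in either comparison, with 132 and 145 genes called in all, and the log2 fold change of Cyba was 4.64 with vehicle (adjusted p = 0.587 from limma). With the replicate number as a block, none of the 6 was called either, although the numbers do not pair these mice. Where genes had to have a mean TPM above 1 in every condition, Rac2 was not tested and the same other 4 genes were called in each comparison. Labels name the samples as biological replicates, and each column is 1 mouse.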

How the data were processed

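RNA of spinal cord from 16 mice was sequenced with a stranded total RNA kit. Per the labels and the methods of the study, reads were trimmed (Trimmomatic 0.38), aligned to mm10 (STAR 2.5.4b) and quantified (RSEM 1.3.1) by the authors, who deposited TPM per gene and mouse, normalized for length and library. The authors also deposited whole-number counts without normalization, and the step that made these counts and its strand setting are not given in the sources used here. No columns were left unused.

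From the counts, edgeR 4.0.16 (R 4.3.3, TMM, quasi-likelihood test, a fit for each pair of groups, Benjamini-Hochberg adjustment over all genes tested) compared the groups for the 16091 genes whose mean TPM exceeded 1 in 1 or more conditions. Calls against Uninjured Control needed an absolute log2 fold change above 0.32 at an adjusted p below 0.05, and calls between treatments the same fold at an unadjusted p below 0.001. TPM were compared on log2(TPM + 1) with limma 3.58.1, where a fold change understates that of low genes. These methods were also run on simulated counts, drawn with the same spread in both groups and, for limma, scaled to CPM in place of TPM. The simulation lacked the excess zeros of the control libraries. It therefore does not show how the tests behave with these controls. Alternatives were DESeq2 1.42.0, its size factors, all 3 groups in 1 fit, voom with group weights, no filter, a filter of TPM above 1 in every condition, log2(TPM + 0.1), the replicate block and each mouse left out. A count of 0 was read as up to 3 counts, or 0.117 to 0.202 CPM. Correlations used residuals from group means. Positions are those of GRCm38 and promoters those of RefSeq.

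The 6 genes and the lists were chosen with earlier results of these data known. Named beside the 6 were list genes, with up to 4 examples by size of change and those not called, the 5 genes most like the mean of the 6, and the closest gene of each. Tctn1, Gtf2ird2, Mrc1, Cox16, Endog, Scamp3 and the further list genes named as called were chosen with their values known. The symbols Cybc1, Ly6g and Ighm of the lists were not matched. Files that hold the comparisons of the study were not used here. One list gene is not reported here and was left out of its list.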

Additional observations from a re-analysis of the deposited data

Results flagged for a closer look

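No value of the 6 genes stood apart from the other mice of its group by Dixon's criterion, in 24 tests over CPM and TPM of the groups of 7 mice.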

How the results depend on the processing

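Against Uninjured Control, 5 of the 6 genes were called with each treatment, or 4 of the 5 other than Rac2. The number was 4 to 6 of the 6 under DESeq2, its size factors, 1 fit of all groups and both gene filters. Limma on TPM and each SCI mouse left out also fell within that range. The count was 0 with voom and group weights in both comparisons (132 and 145 genes called in all, 17 and 18 of them higher, against 3190 of 4726 and 4004 of 6260) and 0 with the replicate block (16 and 0 genes called in all). The replicate numbers do not mark shared animals or batches, residuals of same-numbered SCI mice correlated between -0.19 and 0.14, and 0 of 7 SCI + Atorvastatin mice were closest to their own number. Between treatments no gene of the 6 was called under any alternative, and the replicate block called 8 genes in all there, voom 8, DESeq2 37, 1 fit of all groups 1, and the omission of SCI + Vehicle 4 and 7 called 3, against 17. That omission was chosen after the data were seen and gave -0.043 for Cybb and -0.14 for Rac2. A mean TPM above 1 in every condition left 2398 and 3710 genes called (1261 and 1774 higher), fewer genes being tested, and limma on log2(TPM + 1) called 3609 of 4169 and 4972 of 6076 as higher. Leaving out 1 mouse gave 3839 to 7806 genes called with vehicle and 5582 to 9826 with atorvastatin against the controls, with either control mouse left out giving the higher counts. Between treatments it gave 5 to 32 genes, -0.020 to 0.19 for Cybb and -0.046 to 0.21 for Rac2. For Hvcn1 the bounds of 95.9-fold and 111-fold cover counting error only. They became 4.44 and 5.16 from TPM, and 3.97 and 4.58 from counts implied by that TPM. With the ratio of the vehicle mice the implied counts gave 3.86 and 4.45. The median correlation of the 6 genes was 0.43. It moved to between 0.31 and 0.54 from TPM or without SCI + Vehicle replicate 7 or replicates 7 and 4. In the SCI + Atorvastatin mice alone it was 0.24, and in the SCI + Vehicle mice alone 0.49. Apart from these, the cause of each change was not tested. Against the controls, the lone control left in some fits is assumed to vary like the SCI mice, and each such value rests on 2 control mice.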
